A study of Homo sapiens with 40 samples.

Results

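TCL1A, the T-cell leukaemia/lymphoma 1A oncogene, was followed in 10 established human cell lines of diffuse large B-cell lymphoma (DLBCL), a fast-growing cancer of mature B lymphocytes. It was represented by every probe set whose single annotated symbol was TCL1A, which gave 2 of the 54675 probe sets on the array, 209995_s_at and 39318_at. The gene was chosen by its log2 changes between GSK126 and DMSO on these same arrays, so those changes are described here with their errors and without a test. Cells received 500 nM GSK126, a small molecule inhibitor of the histone methyltransferase EZH2, or 0.1% DMSO for 72 h, with 2 arrays labelled biological replicates per line and treatment, 40 in all. DB, KARPAS-422, Pfeiffer, SU-DHL-4, SU-DHL-6, SU-DHL-10 and WSU-DLCL2 are labelled EZH2 mutant, and HT, OCI-LY-19 and Toledo are labelled EZH2 wild type. The labels also give an average gIC50, a dose that inhibits growth, of 28 nM for Pfeiffer, 134 nM for WSU-DLCL2, 232 nM for KARPAS-422, 448 nM for SU-DHL-10, 516 nM for HT, 582 nM for SU-DHL-6, 861 nM for DB, 1019 nM for OCI-LY-19, 4828 nM for SU-DHL-4 and 13786 nM for Toledo. Each line is the culture of a single tumour, so genotype, line and starting state come together, and the labels do not name the mutation.

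TCL1A encodes a small protein that binds the pleckstrin homology domain of AKT kinases and raises their activity. It is expressed in precursor, naive and germinal centre B cells and falls as B cells become memory or plasma cells, and chromosomal rearrangements that place it beside T cell receptor regulatory elements drive T cell prolymphocytic leukaemia. EZH2 is the catalytic subunit of Polycomb repressive complex 2, which methylates histone H3 at lysine 27 on silenced genes and is abundant in germinal centre B cells.

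The promoters of TCL1A and of its neighbour and relative TCL1B are shown because these genes start within the same cluster on chromosome 14 and are set side by side below. Each sequence holds the 250 bases upstream of the annotated start from RefSeq (GRCh38.p14), written 5′ to 3′ on the gene's own strand, minus for TCL1A at chr14:95714126-95714375 and plus for TCL1B at chr14:95686176-95686425. Capitals mark TATAAA and the GC box GGGCGG, read on either strand.
TCL1A: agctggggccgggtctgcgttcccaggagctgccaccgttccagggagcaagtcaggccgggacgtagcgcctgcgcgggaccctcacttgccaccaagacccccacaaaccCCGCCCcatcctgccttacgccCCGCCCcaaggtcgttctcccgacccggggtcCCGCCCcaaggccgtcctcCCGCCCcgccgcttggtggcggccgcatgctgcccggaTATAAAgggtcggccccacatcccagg
TCL1B: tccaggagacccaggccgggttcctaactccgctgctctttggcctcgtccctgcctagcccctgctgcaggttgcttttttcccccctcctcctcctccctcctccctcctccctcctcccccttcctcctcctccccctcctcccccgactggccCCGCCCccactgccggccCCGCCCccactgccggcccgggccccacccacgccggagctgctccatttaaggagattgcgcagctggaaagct
The TCL1A promoter held 1 TATAAA, whose first base lay at -27 from the start, and 4 GC boxes at -138, -116, -84 and -65. The TCL1B promoter held no TATAAA and 2 GC boxes, at -93 and -75. Among 35116 RefSeq promoters cut to the same length, 10.7% held TATAAA and 42.6% held GGGCGG on either strand. Neither promoter held TGACG or AAAGGTCA, which 21.2% and 1.05% of promoters held. TCL1A had 23 CpG dinucleotides and 71.6% G or C, TCL1B had 12 and 69.6%, and the median promoter had 11 and 58%. These matches describe letters in the window and were not set against any measurement of binding or methylation.

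Values are the authors' MAS5 signals on the linear scale, from probe set 209995_s_at unless the other is named, and log2 changes are GSK126 minus DMSO on log2(signal + 17.72) with the standard error of a limma fit to all 40 arrays. The arrays are scaled to a common mean, and their medians lay between 58.9 and 88.7, which gives a mark for what a dim probe set reads. In bulk RNA of a culture, fewer cells that express a gene and less RNA per cell cannot be told apart.

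TCL1A was lowest under DMSO in WSU-DLCL2 and had its largest change there. Its signal was 2275 and 2347 on the GSK126 arrays of WSU-DLCL2, against 77 and 48 on the DMSO arrays. The log2 change of 4.88 ± 0.12 was the largest of all 15211 genes tested in that line, and the mean signal was 36.9 times as high with GSK126. Leaving out 1 array gave 4.62 to 5.14, a wider span than the shared error of 0.12. Those DMSO signals stood beside array medians of 64.2 and 71.6 and no detection call was used, so they are not shown to be above background, and the fold and the rank rest on them. The second DMSO array of WSU-DLCL2 was the 1 array of 40 on which TCL1A read below the array's median.

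KARPAS-422 showed the same order of treatments from a somewhat higher start. There TCL1A read 1549 and 1506 with GSK126, against 139 and 199 with DMSO, a log2 change of 3.07 ± 0.12 that ranked 48 among all genes tested. Both DMSO values of KARPAS-422 were above both of WSU-DLCL2 on this probe set, while both GSK126 values were below. On the other probe set, 39318_at, the DMSO arrays read 72 and 119 in KARPAS-422, against 79 and 57 in WSU-DLCL2, so they overlapped. Its GSK126 values were again lower in KARPAS-422. A turn in the order of these lines between treatments was thus not shown by both probe sets. It also rests on WSU-DLCL2 signals that are not shown to be above background.

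SU-DHL-10 and Pfeiffer started from an intermediate level. SU-DHL-10 had TCL1A signals of 3075 and 2814 with GSK126, against 836 and 719 with DMSO, and a log2 change of 1.90 ± 0.12. Pfeiffer, the line with the lowest gIC50, had signals of 2819 and 2452 with GSK126, against 981 and 1157 with DMSO, and a log2 change of 1.29 ± 0.12. The changes ranked 69 and 267 among the 15211 genes of SU-DHL-10 and Pfeiffer, so the line most sensitive in growth did not have the largest TCL1A change.

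In the other 6 lines TCL1A was already bright under DMSO and the log2 change lay between 0.05 and 0.33. SU-DHL-6 read 11355 and 10822 with GSK126, against 9246 and 8432 with DMSO (log2 change 0.33 ± 0.12). HT read 4140 and 3926 with GSK126, against 3354 and 3554 with DMSO (0.22 ± 0.12), the lowest DMSO level of this set and a wild type line. In both lines the GSK126 arrays stood above the DMSO arrays by a margin that was small on the log2 scale beside those of the 4 lines above. SU-DHL-4 read 7912 and 7810 with GSK126, against 6501 and 7070.5 with DMSO (0.21 ± 0.12), and DB read 8313 and 8225 with GSK126, against 7901 and 7145 with DMSO (0.14 ± 0.12). OCI-LY-19 read 9706 and 9315 with GSK126, against 8880 and 9445 with DMSO (0.05 ± 0.12). Toledo, the least sensitive line, read 16163 and 17113 with GSK126, against 16225 and 15647 with DMSO (0.06 ± 0.12). The treatments overlapped in OCI-LY-19 and Toledo and did not in HT, DB, SU-DHL-4 and SU-DHL-6. With arrays brought to equal medians the value in Toledo turned to -0.09 and that in SU-DHL-6 became 0.14.

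**Figure D1:**
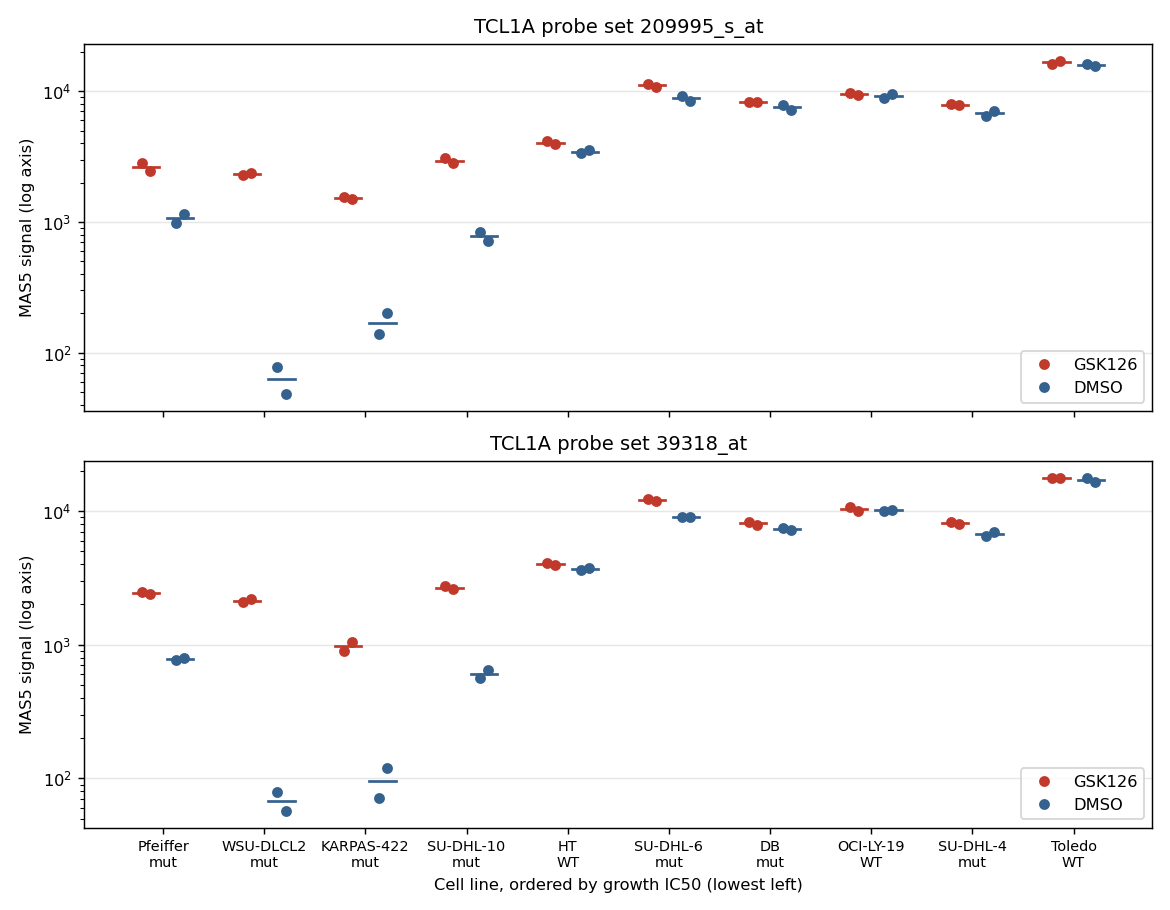
TCL1A signal on each of the 40 arrays (vertical axis, MAS5 signal, log axis), with lines in order of growth IC50 along the horizontal axis, GSK126 left of DMSO within each line. The upper panel is probe set 209995_s_at and the lower 39318_at, and short lines are means. In the upper panel the GSK126 points span 1506 to 17113 and the DMSO points 48 to 16225, and the treatments separate widely in the 4 lines at the left.

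Both GSK126 arrays lay above both DMSO arrays in 8 of 10 lines, on each probe set alike, and the reverse order occurred in 0 lines. This separation was common among genes, holding for 36.5% of all genes tested in WSU-DLCL2, 36.4% in Pfeiffer, 32.6% in SU-DHL-10, 31% in KARPAS-422, 29.1% in HT, 28% in SU-DHL-6, 24% in DB and 23.8% in SU-DHL-4. It held in OCI-LY-19 and Toledo, where TCL1A overlapped, for 24% and 20.4% of genes. In the 4 lines with large TCL1A changes together 5.86% of genes had it in each, and 3.69% had it in at least 8 of 10 lines. Since TCL1A was chosen for its response, nothing is read from these shares.

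The change was also described in signal units, in which it was far more even. The mean signal difference, GSK126 minus DMSO, was 2248 in WSU-DLCL2, 2167 in SU-DHL-10, 1566 in Pfeiffer and 1358 in KARPAS-422. It was 2250 in SU-DHL-6, 1075 in SU-DHL-4, 746 in DB, 702 in Toledo, 579 in HT and 348 in OCI-LY-19. SU-DHL-6 thus had a difference in signal close to that of WSU-DLCL2, from a mean DMSO signal of 8839. The SD between replicates in SU-DHL-6 was 376 with GSK126 and 576 with DMSO, so its difference carried a wide error.

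The second probe set gave the same order of large changes. On 39318_at, WSU-DLCL2 read 2074 and 2179 with GSK126, against 79 and 57 with DMSO, and KARPAS-422 read 897 and 1047 with GSK126, against 72 and 119 with DMSO. SU-DHL-10 read 2732 and 2617 with GSK126, against 565 and 652 with DMSO, and Pfeiffer read 2472 and 2374 with GSK126, against 767 and 789 with DMSO. Its log2 changes were 4.66 in WSU-DLCL2, 2.11 in SU-DHL-10, 3.15 in KARPAS-422 and 1.62 in Pfeiffer, and 0.04 to 0.42 in the other 6 lines, each ± 0.12. Across the 10 lines the changes of the 2 probe sets had a Pearson r of 1.00 and a Spearman rho of 0.95, as a description of probe sets read on the same arrays. The second set read above the first on 20 of 40 arrays, and their ratio per array lay between 0.518 and 1.18. The widest disagreement in change was in Pfeiffer, where 39318_at gave 0.33 more on the log2 scale.

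**Figure D2:**
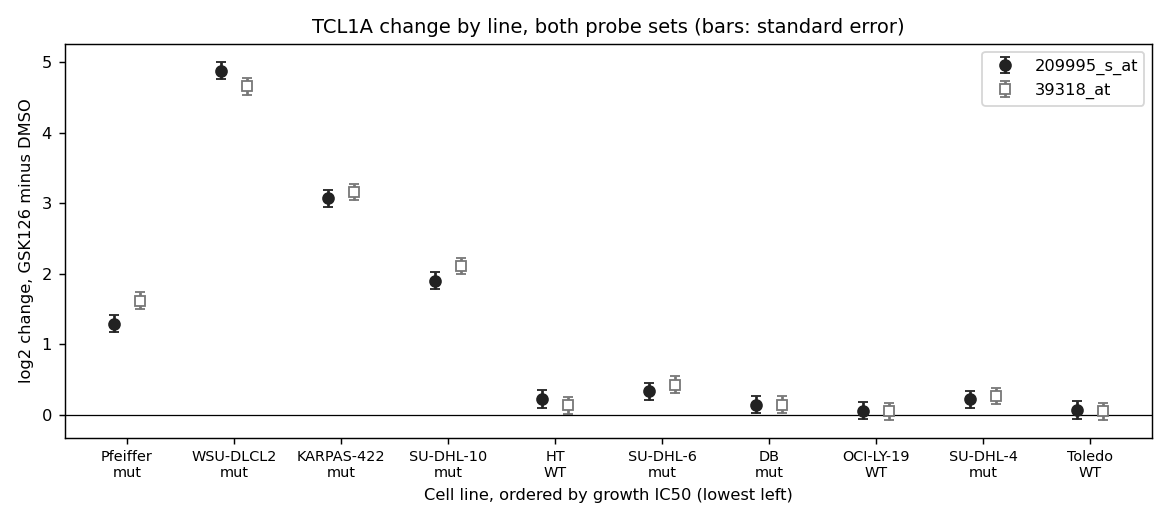
Log2 change of TCL1A, GSK126 minus DMSO (axis of values, log2 scale), in each of the 10 lines in order of growth IC50 for both probe sets; error bars are standard errors. Both sets give 4.88 and 4.66 in WSU-DLCL2 and values below 0.5 in the lines from HT upwards in growth IC50.

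The levels of TCL1A drew together across lines under GSK126. The mean signal with GSK126 ranked KARPAS-422 lowest at 1527 ± 30.1, followed by WSU-DLCL2 at 2311 ± 50.6, Pfeiffer at 2636 ± 260, SU-DHL-10 at 2944 ± 185, HT at 4033 ± 151 and SU-DHL-4 at 7861 ± 72.6. DB followed at 8269 ± 62.4, OCI-LY-19 at 9511 ± 277, SU-DHL-6 at 11088 ± 376 and Toledo at 16638 ± 672 (SD, n = 2 each). In that order only the arrays of Pfeiffer and SU-DHL-10 overlapped between neighbours. The mean signal with DMSO ranked WSU-DLCL2 lowest at 62.7 ± 20.4, followed by KARPAS-422 at 169 ± 42.8, SU-DHL-10 at 778 ± 82.4, Pfeiffer at 1069 ± 124, HT at 3454 ± 141 and SU-DHL-4 at 6786 ± 402. DB followed at 7523 ± 535, SU-DHL-6 at 8839 ± 576, OCI-LY-19 at 9163 ± 399 and Toledo at 15936 ± 408 (SD, n = 2 each). Under DMSO only SU-DHL-6 and OCI-LY-19 overlapped between neighbours. The highest line stood 10.9 times above the lowest with GSK126. With DMSO the ratio was 254, over the WSU-DLCL2 signal that is not shown to be above background. On the log2 scale the SD over lines was 1.14 with GSK126 and 2.62 with DMSO. The 4 lines with the large changes remained the 4 lowest under GSK126, so none of them reached the level of HT.

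Set against all 54675 probe sets of its array, TCL1A stood near the middle of the range with DMSO in WSU-DLCL2 and in its upper part with GSK126. In WSU-DLCL2 it lay at the percentiles 91.9 to 92.2 with GSK126, against 42.6 to 53.0 with DMSO. In KARPAS-422 it lay at 88.3 to 88.5 with GSK126, against 63.7 to 67.7 with DMSO. SU-DHL-10 and Pfeiffer were at 80.9 to 86.0 with DMSO, HT was at 94.4 to 94.8, and the other 5 lines were at 97.6 to 99.3. On that scale the 4 low lines still lay below HT with either treatment.

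The growth response was compared with TCL1A next. The log2 change was larger in lines with a lower gIC50 by rank, with a Spearman rho of -0.85 and a Pearson r of -0.56 against log10 of the gIC50 over 10 lines. Pfeiffer departed from a straight line, with the lowest gIC50 and only the fourth largest change. Without Toledo and Pfeiffer, the lines farthest from the median gIC50, r was -0.77 and rho -0.90 over 8 lines. Among the 7 mutant lines r was -0.50 and rho -0.75. The lines fell into a set of 4 with large changes and a set of 6 with small ones, so the pooled values mostly describe the gap between them, and within the 6 lines with a DMSO signal above 1500 rho was -0.66.

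The same change was next set against the starting level. Against the DMSO log2 level, r was -0.96 and rho -0.92 over 10 lines, -0.97 and -0.89 over the 7 mutant lines, and -0.93 and -0.83 over 8 lines without WSU-DLCL2 and KARPAS-422. Within the 6 bright lines r was -0.47 and rho -0.60. The change contains the DMSO level with a minus sign, so the measures share arrays and their noise. With the level taken from 1 replicate number and the change from the other, a choice made after seeing the data, r was -0.92 and -0.98 for the 2 ways round. Both replicates carry the DMSO level of the same line, so that change still contains the level with a minus sign. The log2 levels spread more over lines with DMSO (SD 2.62) than with GSK126 (SD 1.14). A negative r was thus built in, and nothing is read from the split. The DMSO level itself had a rho of 0.84 with log10 gIC50 and an r of 0.68, and the GSK126 level a rho of 0.84 and an r of 0.78. Lines in which TCL1A was dim were thus also the lines with a low gIC50 under both treatments, and the starting level and the growth response cannot be told apart in 10 lines.

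**Figure D3:**
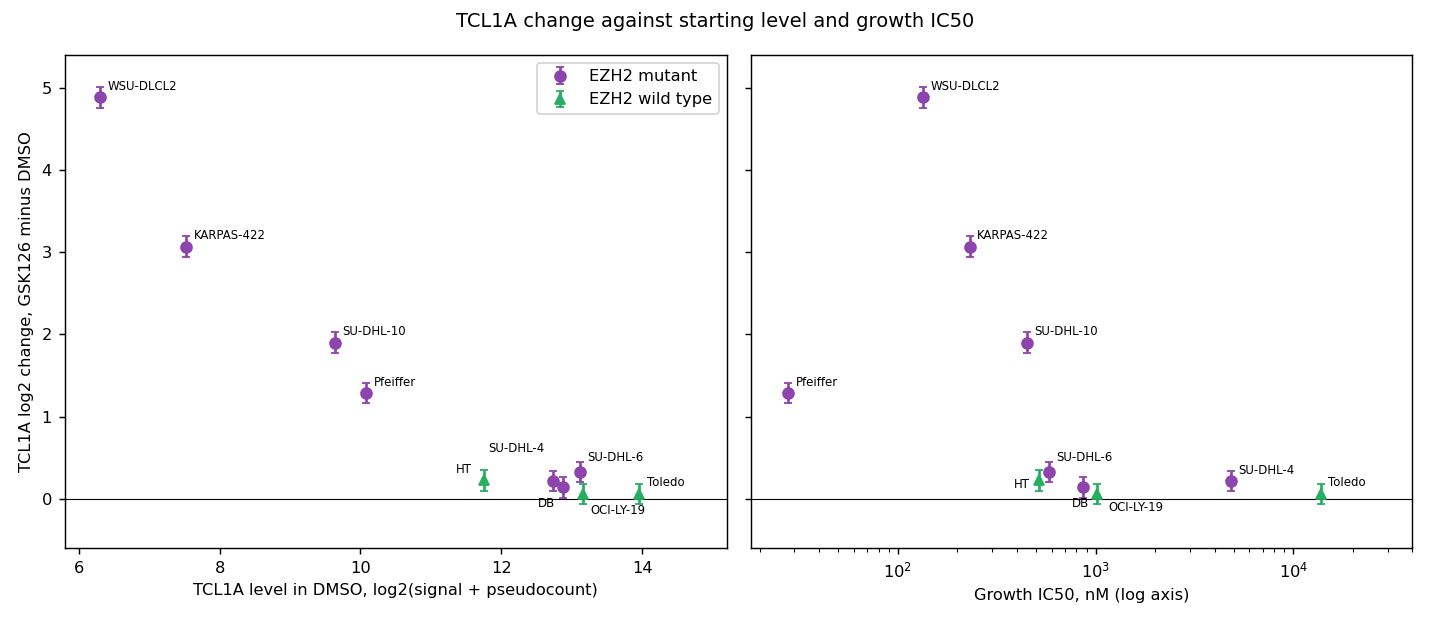
Log2 change of TCL1A, GSK126 minus DMSO (vertical axis, log2, bars are standard errors), against its DMSO level on log2(signal + pseudocount) at left and against growth IC50 in nM on a log axis at right, 1 point per line coloured by genotype. WSU-DLCL2 and KARPAS-422 are at 4.88 and 3.07, Pfeiffer is at 1.29 with the lowest growth IC50, and 6 lines lie between 0.05 and 0.33.

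The descriptions of the arrays carry a tag, R6, R7 or R8, whose meaning the labels do not give, and each line has 1 tag. Under R6 the log2 changes were 1.29 in Pfeiffer, 3.07 in KARPAS-422 and 0.06 in Toledo. Under R7 they were 4.88 in WSU-DLCL2, 1.90 in SU-DHL-10, 0.22 in HT, 0.14 in DB and 0.21 in SU-DHL-4, and under R8 they were 0.33 in SU-DHL-6 and 0.05 in OCI-LY-19. Large and small changes occurred under both R6 and R7, and in each of these tags the dimmest line under DMSO had the largest change. Every comparison of treatments was within a line and hence within a tag.

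Genotype did not separate the responses. The log2 change averaged 1.69 ± 1.77 in the 7 mutant lines and 0.11 ± 0.10 in the 3 wild type lines (SD over lines). Mutant lines ranged from 0.14 in DB to 4.88 in WSU-DLCL2, and wild type lines from 0.05 in OCI-LY-19 to 0.22 in HT, so the ranges overlapped. The DMSO log2 level averaged 10.32 ± 2.73 in mutant lines and 12.96 ± 1.11 in wild type lines. With GSK126 the averages were 12.01 ± 1.10 in mutant lines and 13.07 ± 1.03 in wild type lines. The 3 mutant lines DB, SU-DHL-4 and SU-DHL-6 had DMSO levels between those of HT and Toledo, and changes in the range of SU-DHL-6's 0.33 down to DB's 0.14. All 4 lines with a change above 1 were mutant, and with 3 wild type lines, each brighter under DMSO than those 4, a dim wild type line was not sampled.

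The relatives of TCL1A were examined on the same arrays: TCL1B, its neighbour and close paralogue, TCL6, a transcribed gene of the same locus without a known protein product, and MTCP1, a paralogue on the X chromosome. These were tested in the fit over all 15211 genes (limma, Benjamini-Hochberg adjusted), and of 30 gene-line pairs 5 rose and 0 fell. Over all genes and lines 7.55% of pairs rose and 5.13% fell. By line, the shares of all genes that rose and fell were 15.5% and 13.4% in KARPAS-422, 14.6% and 9.93% in Pfeiffer, 13.9% and 12.7% in WSU-DLCL2, 11% and 7.16% in SU-DHL-10, and 7.42% and 3.56% in SU-DHL-6. They were 6.31% and 3% in HT, 2.5% and 0.618% in DB, 2.14% and 0.454% in SU-DHL-4, 1.97% and 0.44% in OCI-LY-19, and 0.138% and 0.0263% in Toledo. TCL1B rose in Pfeiffer, where it read 2378 and 2155 with GSK126, against 669.8 and 567.6 with DMSO (log2 change 1.85 ± 0.22, limma adjusted p = 3.42e-07). TCL1A changed there by 1.29 ± 0.12 on 1 probe set and 1.62 ± 0.12 on the other.

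In WSU-DLCL2, where TCL1A changed most, TCL1B rose from a dim level. It read 101 and 130 with GSK126, against 41 and 15 with DMSO (1.59 ± 0.22, limma adjusted p = 3.22e-06). In KARPAS-422 it read 9 and 18 with GSK126, against 9 and 13 with DMSO, and in SU-DHL-10 16 and 19 with GSK126, against 9 and 16 with DMSO, both lines below the array medians. With GSK126, TCL1A signals of 1506 to 3075 in these lines were therefore measured beside TCL1B signals of 9 to 19. HT and SU-DHL-4 also paired bright TCL1A with TCL1B at 46 or less on every array.

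TCL1B also rose in DB, with 835 and 824 on the GSK126 arrays, against 458 and 371 on the DMSO arrays (0.98 ± 0.22, limma adjusted p = 0.0097), where TCL1A changed by 0.14. With a pseudocount of 1 that call was lost (adjusted p = 0.179). TCL1B was bright in SU-DHL-6, with 4775 and 4754 on the GSK126 arrays, against 3880 and 3463 on the DMSO arrays, and in Toledo, with 24082 and 21969 on the GSK126 arrays, against 24595 and 21786 on the DMSO arrays. It was bright in OCI-LY-19 too, with 4818 and 4838 on the GSK126 arrays, against 5747 and 5204 on the DMSO arrays, and in none of these 3 lines did its change pass the test. Toledo, SU-DHL-6 and OCI-LY-19 were also the 3 brightest lines for TCL1A.

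On the probe set that stood for it, TCL6 rose in WSU-DLCL2 and KARPAS-422. It read 603 and 630 with GSK126, against 254 and 249 with DMSO, in WSU-DLCL2 (1.23 ± 0.19, limma adjusted p = 1.51e-05). In KARPAS-422 it read 41 and 72 with GSK126, against 6 and 16 with DMSO (1.35 ± 0.19, limma adjusted p = 3.15e-06), below the array medians or near them. Further TCL6 probe sets on the array were not tested. In WSU-DLCL2 each read higher on both GSK126 arrays than on both DMSO arrays. In KARPAS-422 all were dim and did not all repeat the rise. Their means there were 38.7, 32.3, 9.07, 12.2 and 11.8 with GSK126, against 16.3, 17.1, 5.74, 12.7 and 22.6 with DMSO. MTCP1 passed the test in 0 lines, with changes between -0.38 and 0.41.

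The 10 tested genes on either side of TCL1A on chromosome 14 were listed by order in the RefSeq annotation, from SERPINA12 to LINC02325. Of their 200 gene-line pairs 13 rose (6.5%) and 8 fell (4%), near the 7.55% and 5.13% of all pairs, and 5 of the 13 rises were those of TCL1B and TCL6. In WSU-DLCL2, beside the TCL1A change of 4.88, DICER1, which makes microRNAs, rose by 0.28 ± 0.07, PAPOLA, a poly(A) polymerase, rose by 0.27 ± 0.07 and ATG2B, a lipid transfer protein of autophagy, changed by -0.21 ± 0.06. With arrays at equal medians these DICER1 and PAPOLA values became 0.03 and 0.02 and passed no test, and the ATG2B call was lost with quantile normalization (adjusted p = 0.067). In KARPAS-422, beside 3.07 for TCL1A, DICER1-AS1 rose by 1.35 ± 0.32 at signals of 73 with GSK126 and 18 with DMSO, and PAPOLA changed by -0.28 ± 0.07. GSKIP, a binding protein of the kinase GSK3B, rose by 0.35 ± 0.06 in Pfeiffer and 0.27 ± 0.06 in HT, both calls lost with arrays at equal medians (0.20 and 0.21). C14orf132 and DICER1-AS1 rose in SU-DHL-6, by 1.52 ± 0.42 and 1.34 ± 0.32, where TCL1A changed by 0.33.

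VRK1, a nuclear kinase of proliferating cells, fell in 6 lines and was the neighbour called in most lines. Its log2 change was -0.62 ± 0.06 in WSU-DLCL2, -0.58 ± 0.06 in Pfeiffer, -0.46 ± 0.06 in SU-DHL-10, -0.27 ± 0.06 in KARPAS-422, -0.24 ± 0.06 in SU-DHL-6 and -0.20 ± 0.06 in HT. No neighbour outside TCL1B and TCL6 rose in more than 2 lines. In SU-DHL-10, with a TCL1A change of 1.90, 0 of the 20 neighbours rose and VRK1 alone fell. Of all genes tested in SU-DHL-10 11% rose and 7.16% fell, so among 20 genes these counts are not far from those shares.

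**Figure D4:**
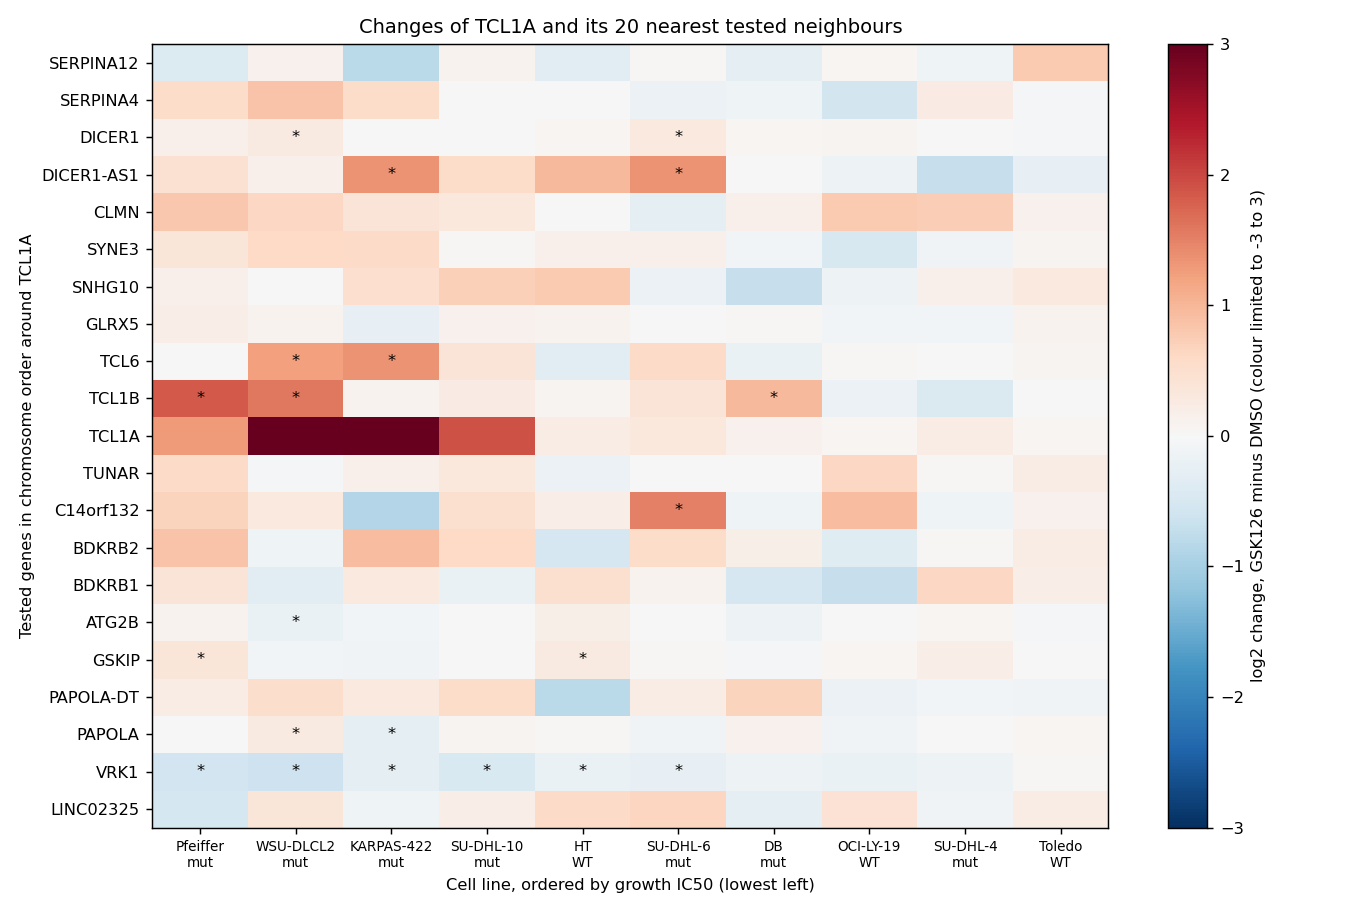
Log2 change, GSK126 minus DMSO (colour), of TCL1A and the 10 tested genes on either side of it, in chromosomal order down the page, in the 10 lines across; asterisks mark calls of genes other than TCL1A, and the colour scale ends at 3. The TCL1A values of 4.88 and 3.07 in WSU-DLCL2 and KARPAS-422 stand in columns where most neighbours lie near 0.

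TCL1A acts through AKT, so the genes of that pathway were counted. Of 37 listed genes 30 were tested, and of their 300 gene-line pairs 44 rose (14.7%) and 27 fell (9%), against 7.55% and 5.13% of all pairs. With arrays at equal medians the split was 24 risen and 47 fallen, so the balance of directions depended on scaling. Among genes upstream of AKT, PIK3R3, a regulatory subunit of phosphoinositide 3-kinase, rose in 8 lines, from 0.32 ± 0.10 in SU-DHL-6 to 1.55 ± 0.10 in Pfeiffer (limma adjusted p = 5.58e-12). PIK3CG, a catalytic subunit, rose by 1.18 ± 0.08 in Pfeiffer and 0.46 ± 0.08 in WSU-DLCL2. PIK3CB, another catalytic subunit, fell in 5 lines, by log2 changes of -0.38 in Pfeiffer to -0.27 in SU-DHL-6.

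The kinases that the TCL1A protein binds changed little. AKT1 passed the test in 0 lines, with changes between -0.21 and 0.04. AKT2 rose by 0.29 ± 0.11 in both WSU-DLCL2 and KARPAS-422 and changed by -0.31 ± 0.11 in SU-DHL-10, and these 3 calls were each lost under some other setting.

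Inhibitors of the pathway moved in both directions, with 7 rises and 7 falls among 60 pairs (11.7% each), where 7.55% of all pairs rose and 5.13% fell. PIK3IP1, which inhibits phosphoinositide 3-kinase, rose by 1.32 ± 0.13 in Pfeiffer, 0.96 ± 0.13 in KARPAS-422 and 0.56 ± 0.13 in OCI-LY-19. PHLPP1, a phosphatase of AKT, rose by 0.86 ± 0.14 in SU-DHL-6, 0.55 ± 0.14 in Pfeiffer and 0.49 ± 0.14 in SU-DHL-10, and changed by -0.46 ± 0.14 in KARPAS-422. Genes whose proteins AKT phosphorylates had 19 rises (17.3%) and 7 falls (6.36%) among 110 pairs, set against the same shares of all pairs. TBC1D4, a regulator of glucose transporter traffic, rose by 2.47 ± 0.18 in SU-DHL-10 (limma adjusted p = 4.82e-11) and by 0.79 ± 0.18 in Pfeiffer, 0.68 ± 0.18 in OCI-LY-19 and 0.64 ± 0.18 in WSU-DLCL2. The OCI-LY-19 call was lost under 5 other settings and the WSU-DLCL2 call under 3. FOXO1, a transcription factor that AKT keeps out of the nucleus, rose by 1.13 ± 0.10 in KARPAS-422, 1.11 ± 0.10 in DB and 0.37 ± 0.10 in Pfeiffer, and in WSU-DLCL2, with the largest TCL1A change, its change of -0.13 did not pass the test. TSC1, which restrains mTOR signalling, rose in 5 lines by 0.38 to 0.61, and with arrays at equal medians 4 of those calls were lost, at 0.13 to 0.33. CDKN1B, a cell cycle inhibitor, rose in 3 lines and fell in 3, with changes between -0.43 in WSU-DLCL2 and 0.60 in SU-DHL-6. These are RNA levels, and no kinase activity was measured.

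Among 11 genes that bind TCL1A protein or regulate its expression, 3 of 110 pairs rose and 15 fell, where 7.55% of all pairs rose and 5.13% fell, and with each line fitted alone 9 fell. FOS, a subunit of the AP-1 transcription factor, changed by -2.47 ± 0.34 in KARPAS-422, -2.48 ± 0.34 in WSU-DLCL2 and -1.05 ± 0.34 in SU-DHL-10. Its mean signals in KARPAS-422, WSU-DLCL2 and SU-DHL-10 were 20.9, 41.1 and 95.9 with GSK126, against 183, 291 and 217 with DMSO. JUN, its partner in AP-1, changed by -1.70 ± 0.23 in WSU-DLCL2 and by 0.72 ± 0.23 in Pfeiffer. In the other 7 lines FOS averaged 3.73 to 15.4 with DMSO, too dim for a fall to be measured, and with a pseudocount of 1 the SU-DHL-10 call was lost (adjusted p = 0.277).

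Because TCL1A marks early stages of the mature B cell series, genes of those stages were counted beside it. Of 180 naive and transitional gene-line pairs 34 rose (18.9%) and 9 fell, of 160 germinal centre pairs 26 rose and 8 fell, and of 190 memory and plasma cell pairs 41 rose (21.6%) and 6 fell, where 7.55% of all pairs rose and 5.13% fell. With arrays at equal medians 21 naive pairs rose, 13 germinal centre pairs rose and 15 fell, and 27 memory and plasma cell pairs rose and 10 fell, so the balance of the germinal centre list turned. In WSU-DLCL2, 8 of 18 tested naive genes rose and 3 fell, where 13.9% of all genes rose and 12.7% fell. The rises there were led by CD24, a surface glycoprotein of immature B cells, at 2.60 ± 0.09. In KARPAS-422, BACH2, a repressor of plasma cell differentiation, rose by 3.51 ± 0.16 (mean signal 985 with GSK126 and 70.1 with DMSO), the largest change of the naive list.

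BACH2 rose in all 4 lines with a large TCL1A change and in SU-DHL-6, by 1.41 in WSU-DLCL2, 1.14 in SU-DHL-10, 0.61 in Pfeiffer and 0.59 in SU-DHL-6. With each line fitted alone its Pfeiffer and SU-DHL-10 calls were lost. Its SU-DHL-6 call was lost with a pseudocount of 1 and with arrays at equal medians. TCF4, a transcription factor of the B cell series and of plasmacytoid dendritic cells, rose in 6 lines by 0.21 to 0.87, and with arrays at equal medians 5 of those calls were lost, at 0.06 to 0.29. CCR7, a homing receptor, rose by 2.40 ± 0.37 in Pfeiffer, 1.76 ± 0.37 in SU-DHL-6 and 1.23 ± 0.37 in SU-DHL-10, and changed by -1.25 ± 0.37 in WSU-DLCL2. The WSU-DLCL2 and SU-DHL-10 calls of CCR7 were lost with a pseudocount of 1. Its SU-DHL-6 and SU-DHL-10 calls were lost with each line fitted alone, and that in SU-DHL-10 also with quantile normalization. VPREB3, of the B cell receptor assembly, rose in WSU-DLCL2 and OCI-LY-19 and fell in KARPAS-422, SU-DHL-10 and Pfeiffer. The gain of TCL1A was thus not matched by a rise of every gene of its stage.

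Germinal centre genes differed by line. LMO2, a transcriptional cofactor, rose in 5 lines and most in Pfeiffer, at 1.90 ± 0.16, and 3 of those calls were lost with arrays at equal medians. STAP1, a B cell adaptor, rose by 1.56 ± 0.06 in Pfeiffer, 0.96 ± 0.06 in KARPAS-422 and 0.35 ± 0.06 in WSU-DLCL2, and changed by -0.22 ± 0.06 in SU-DHL-6. CD38, found on germinal centre and plasma cells, rose by 2.15 ± 0.37 in KARPAS-422.

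Memory and plasma cell genes rose in several of the same lines. JCHAIN, which joins immunoglobulin polymers, rose by 4.66 ± 0.28 in KARPAS-422, where TCL1A changed by 3.07, and by 3.68 ± 0.28 in DB, where TCL1A changed by 0.14. AIM2, a DNA sensor of memory B cells, rose by 4.16 ± 0.24 in KARPAS-422 and by 1.70 ± 0.24, 1.31 ± 0.24 and 0.67 ± 0.24 in DB, WSU-DLCL2 and Pfeiffer. TENT5C, a poly(A) polymerase of plasma cells, rose by 3.74 ± 0.36 in Pfeiffer, 1.61 ± 0.36 in KARPAS-422 and 1.26 ± 0.36 in HT. TNFRSF17, a plasma cell survival receptor, rose in 5 lines by 0.29 to 0.90, and FKBP11, a secretory pathway chaperone, in 5 lines by 0.28 to 0.61, of which 3 calls were lost with arrays at equal medians.

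The B cell label was checked against 8 B cell markers, of which 7 were tested. PAX5, the defining B cell transcription factor, read 3315 to 13530 with GSK126 and 3418 to 13718 with DMSO over the 10 lines. Of 70 B cell marker pairs 16 rose (22.9%) and 1 fell (1.43%). Over all genes and lines 7.55% of pairs rose and 5.13% fell, the shares to set beside each marker count below. MS4A1 and BLK were low in OCI-LY-19, at means of 74.2 and 8.46 with GSK126 and 32.6 and 10.96 with DMSO. T and NK cell markers summed to 223 to 7326 with GSK126 and 217 to 9077 with DMSO, highest in KARPAS-422. There CD3D and CD3G read means of 3544 and 3577 with GSK126 and 5162 and 3661 with DMSO. CD3E, CD5, CD7 and KLRD1 were far dimmer there, at means of 18.4 to 99.3 with GSK126 and 15.7 to 135 with DMSO. Of 60 T and NK cell marker pairs 1 rose. Of 9 T and NK cell markers 6 were tested, and CD2, NKG7 and GNLY were too dim. Plasmacytoid dendritic cells also express TCL1A, and of 3 of their 6 markers tested TCF4 supplied all 6 rises among 30 pairs. The summed plasmacytoid dendritic cell markers lay between 983 and 11896 with GSK126 and between 580 and 12059 with DMSO, and the defining markers CLEC4C and IL3RA were too dim to be tested. Of 7 myeloid markers 3 were tested, summing to 70.4 to 255 with GSK126 and 122 to 302 with DMSO, with 1 rise and 2 falls. Of 8 stromal and epithelial markers 6 were tested, summing to 615 to 20304 with GSK126 and 542 to 15645 with DMSO, highest in KARPAS-422. That sum was mostly DCN, at means of 19538 with GSK126 and 14926 with DMSO. The next marker in KARPAS-422, COL1A1, read 485 with GSK126 and 577 with DMSO. All 3 rises of the list were those of DCN. The part of these markers in the TCL1A values was not tested.

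Genes with a pattern like that of TCL1A were ranked by Pearson's r over the 10 lines, as a description on shared arrays. Among 2850 genes called in at least 3 lines, the log2 change was most alike for AFF3 (0.95), SCAND1 (0.93), IVD (0.93), FMO4 (0.92) and COMMD7 (0.92), and r reached 0.9 in 6 genes, or 0.211%. AFF3, a nuclear elongation factor first found in lymphoid cells, rose by 1.47 ± 0.23 in KARPAS-422, 3.19 ± 0.23 in WSU-DLCL2 and 0.97 ± 0.23 in SU-DHL-10, and in Pfeiffer its change of 0.05 did not pass the test, against 1.29 for TCL1A. In SU-DHL-10 AFF3 was below the array medians, at means of 28.7 with GSK126 and 6.40 with DMSO. That call was lost with the line fitted alone (limma adjusted p = 0.217). The KARPAS-422 call of AFF3 was lost with a pseudocount of 1 (limma adjusted p = 0.087). IVD, a mitochondrial enzyme of leucine breakdown, rose in 5 lines by up to 0.79, and FMO4, a flavin monooxygenase, in 4 lines by up to 1.27. SCAND1 rose in 4 lines by up to 0.72 and COMMD7 in 3 by up to 0.55. With arrays at equal medians 3 calls of IVD, 3 of SCAND1, 2 of FMO4 and 2 of COMMD7 were lost. The changes most opposed were those of LRR1 (-0.95), AUNIP (-0.95), which takes part in DNA repair, and GEMIN2 (-0.94), a subunit of the spliceosome assembly complex. LRR1 fell in 5 lines, AUNIP and GEMIN2 in 4, and each had its largest fall in WSU-DLCL2, at -0.58, -0.92 and -0.48.

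For the DMSO level, compared among 5327 genes whose level spanned at least 2 on the log2 scale, likeness was lower and r reached 0.9 in 0 genes. The highest values were those of DUS3L (0.85), a tRNA modifying enzyme, HNRNPA0 (0.83), an RNA binding protein, ATP5MF (0.82), a subunit of ATP synthase, USP31 (0.82) and PPM1E (0.82). The most opposed were HCAR3 (-0.95), IDH1-AS1 (-0.92) and LHPP (-0.91). No gene among these 8 was also among the 8 named for the likeness in change. Some of them were dim. Mean DMSO signals ran from 5.11 in HT to 82.6 in WSU-DLCL2 for HCAR3 and from 27.7 in KARPAS-422 to 193 in Toledo for ATP5MF. For IDH1-AS1 they ran from 35.1 in SU-DHL-6 to 237 in WSU-DLCL2. Much of the spread of HCAR3 thus lay below the array medians, where readings are not shown to be above background.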

How the data were processed

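RNA of each culture was read on a one-colour Affymetrix array, 40 in all. The deposited values are log2 signals, made with MAS5 per the submitters' processing notes, which state no version. Brought back to linear, the mean of every array after trimming 2% at each end was 499.9. MAS5 summarises each array alone, so scaling to a common mean sets what counts as a change, and dim probe sets scatter widely. Values were analysed as log2(signal + 17.72), the pseudocount being the median over arrays of the 25th percentile, which understates changes of dim genes. Symbols came from the platform annotation, which can be old, and 41091 of 54675 probe sets had 1 symbol. The brightest single-symbol probe set on average stood for a gene, and genes that exceeded the array median on 2 or more arrays were tested (15211 of 19775).

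With limma 3.58.1 (R 4.3.3) 1 model with 20 group means, moderated variances and an intensity trend was fitted to the 40 arrays (20 residual and 6.98 prior degrees of freedom). Each line's GSK126 arrays were compared with its DMSO arrays, two-sided, with Benjamini-Hochberg adjustment over 15211 genes and calls at an adjusted p under 0.05. The fit was tested on simulated data. The p-values rest on the spread between arrays labelled biological replicates, whose separation is not described and may be technical. The labels reuse replicate numbers 1 and 2, but same-numbered deviations correlated at -0.04 to 0.07 per line, so the numbers were not used to pair arrays. Their number limits the precision.

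TCL1A, the gene lists and the tests were chosen with earlier results of these data known. Named genes were all of TCL1A's relatives and the AKT kinases tested. From each other list they were the genes called in at least 5 lines or among the 3 largest called changes, from the 20 neighbours those called in any line, and by likeness the 5 most alike and 3 most opposed in change and in DMSO level. Alternatives were a pseudocount of 1, quantile normalization, arrays at equal medians, the other probe set, no filter, each line alone, a replicate block, each array left out, and lines left out. Promoters and gene order came from RefSeq tables of GRCh38.p14; the array's build was not used here, so no probe coordinates are given.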

Additional observations from a re-analysis of the deposited data

How the results depend on the processing

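The TCL1A change kept its direction and size within the spread between replicates under a pseudocount of 1, quantile normalization, equal medians and the other probe set, with these exceptions, whose cause was not tested. The log2 change was 5.22 in WSU-DLCL2 with a pseudocount of 1 and 2.79 in KARPAS-422 with quantile normalization. The other probe set gave 1.62 in Pfeiffer, 4.66 in WSU-DLCL2 and 2.11 in SU-DHL-10. Arrays at equal medians gave 4.65 in WSU-DLCL2, 2.92 in KARPAS-422, 1.14 in Pfeiffer, 0.14 in SU-DHL-6, 1.65 in SU-DHL-10 and a turned sign in Toledo, -0.087. That scaling shifted the median of all genes by between -0.23 and -0.14 in the 4 lines with large TCL1A changes, SU-DHL-6 and Toledo, and by at most 0.07 in size elsewhere. Leaving out 1 array gave TCL1A changes of 4.62 to 5.14 in WSU-DLCL2, 1.17 to 1.41 in Pfeiffer, 2.83 to 3.30 in KARPAS-422, 1.79 to 2.01 in SU-DHL-10, 0.18 to 0.26 in HT, 0.26 to 0.39 in SU-DHL-6, 0.07 to 0.21 in DB, 0.01 to 0.10 in OCI-LY-19, 0.15 to 0.27 in SU-DHL-4 and 0.02 to 0.10 in Toledo. Leaving out 1 line gave a mutant minus wild type difference of 1.04 to 1.83, against 1.57, a Pearson r with log10 gIC50 of -0.70 to -0.53 and with the DMSO level of -0.97 to -0.96. By rank these correlations were -0.85 and -0.92, without the 2 lines farthest from the median -0.77 and -0.93. The DMSO-level correlation with level and change from different arrays was -0.92 and -0.98, the 2 ways round. That change still contains the line's DMSO level, so the split is no check on the correlation. The replicate block cannot move a change in this balanced design (4.88 in WSU-DLCL2), and with it Toledo had 16 called genes in place of 25. List counts moved by over 1.5 times with arrays at equal medians: 24 risen and 47 fallen in the AKT pathway, 21 risen in the naive, 13 risen and 15 fallen in the germinal centre, 27 risen and 10 fallen in the memory and plasma, and 8 risen and 15 fallen in the neighbour list. Quantile normalization gave 5 fallen neighbours and 1 fallen pair in the TCL1 family, and each line fitted alone gave 9 fallen partners and regulators. Without 1 array the counts were 40 to 45 risen and 22 to 33 fallen for the AKT pathway, 4 to 6 risen and 0 fallen for the TCL1 family, 3 to 5 and 13 to 16 for partners, 31 to 37 and 8 to 11 for naive, 24 to 28 and 6 to 11 for germinal centre, 37 to 44 and 5 to 7 for memory and plasma, and 11 to 15 and 7 to 9 for neighbours. Of 171 calls of the 52 named genes, 56 were lost and 1 turned with equal medians (HNRNPA0 in SU-DHL-10, -0.01), 16 were lost and 1 turned with quantile normalization (CD24 in Pfeiffer, -0.05), and 53 were lost with each line fitted alone. Each line alone, a fit with fewer arrays, called 1600 genes in SU-DHL-10 (2762 otherwise), 374 in SU-DHL-6 (1670), 275 in DB (475), 138 in OCI-LY-19 (366), 104 in SU-DHL-4 (395) and 0 in Toledo (25), and equal medians called 848 in HT (1417), 164 in OCI-LY-19 and 191 in SU-DHL-4. Genes near the array median, such as TCL1A in WSU-DLCL2 with DMSO, are the least precise.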
